A study of Rattus norvegicus with 192 samples.

Results

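The genes described here are the cytosolic ribosomal protein genes of rat hepatocytes. They were taken by name alone, as every probe whose symbol is Rpl or Rps followed by a number (with a closing a, x or y where present) or is Rpsa, Rplp0, Rplp1 or Rplp2. The rule found 43 of 22253 probes, which carry 38 symbols, with 24 probes for the large and 19 for the small ribosomal subunit. Rplp1 and Rplp2 had no probe under it. The names Rpl262, Rpl397, Rps185, Rps22 and Rps74 are in the deposited table but not in the RefSeq gene table (GRCr8), and they are printed as found. A further 39 probes with ribosomal protein names fall outside the rule, 23 of them because their symbol has a decimal suffix, such as Rps170.000001'.

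The cells were primary hepatocytes of male rats on collagen, all in 0.1% DMSO, the solvent, for 24 h. RNA was read by TempO-Seq, a targeted assay in which pairs of detector oligonucleotides are ligated on a transcript, amplified and counted. There were 29 chemicals at 6 doses (1 library per dose), with 100 or 33.3 µM as the highest dose, 9 reference chemicals at 1 dose (1 library each) and 9 libraries of DMSO alone. Controls throughout were DMSO replicates 2 to 9, which lie on 3 plates. Nothing in the labels ties wells to different animals or cultures, and p-values here therefore cover the variation from library to library alone, some or all of it technical.

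A cytosolic ribosome pairs a small subunit, which holds the mRNA and reads its codons, with a large subunit, which joins amino acids and passes the new chain out through a tunnel. Each subunit is built from ribosomal RNA and 1 copy of most of its proteins, so cells usually make these proteins in step with one another. Their mRNAs are among the most abundant in a cell, and many begin with a C followed by a run of pyrimidines at the cap. That tract, called TOP, ties their translation to nutrient and growth signals that act through mTOR. Hepatocytes export large amounts of plasma protein, and ribosomal mRNAs are abundant in them.

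The starts of some members are shown because genes that share this tract moved in opposite directions between libraries, as described further on. RefSeq promoters were found for 27 of the 38 symbols (28 entries). Of these, 10 (35.7%) have a C at the annotated start followed by at least 4 bases that are C or T, read on the gene's strand, against 881 of 33469 entries of the whole table (2.63%). Each window holds the 20 bases before the start and the first 10 from it, and capitals mark the tract within those bases. The match describes the annotated start only.
Rpl10: atgcgcaggcgtgggagcgtCTCTTTTCCT
Rps7: tgttctcgcgagagctgtgtCTCTTTCTaa
Rps15: gcagccgctgacaccgcttcCTTTTCCCag
Rplp0: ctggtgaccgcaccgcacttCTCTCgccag
Rpl35: ggccccgccccttcctctttCTCTCgaacc
Rps6: ttcgtgacgcctcctaggcggtcggctgtg
On build GRCr8 these lie at chrX:157205830-157205859 (plus strand) for Rpl10, chr6:50999436-50999465 (minus) for Rps7, chr7:10068106-10068135 (minus) for Rps15, chr12:46718381-46718410 (minus) for Rplp0, chr3:43165912-43165941 (minus) for Rpl35 and chr5:106420531-106420560 (minus) for Rps6. Rps6, the small-subunit protein that S6 kinase phosphorylates, has no tract at its annotated start in this table.

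Total counts ran from 2876741 to 8513985 in the 8 control libraries and from 1340300 to 11249014 in the dose libraries, and the sulforaphane library was shallower, at 582071. DMSO replicate 1 stood apart from the other DMSO libraries and was left out: of 31 members at 10 CPM or more in DMSO, 6 lay above and 20 below the range of the other 8. Hepatocyte markers (11 of 12 with a probe) summed to 29054 to 49835 CPM in the controls, macrophage markers (8) to 55.6 to 90.4 CPM, and endothelial (7), bile duct (5) and stellate cell markers (7 of 8) to at most 29.2 CPM, with Krt7 and Col1a1 at 0 in all 8. As the libraries are bulk RNA, fewer cells of a type and less RNA per cell cannot be told apart.

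The members together took 3.33% to 3.95% of all counts in the controls, with a median of 3.64%, that is a sum of 36398 CPM (counts scaled to a common library total). A few probes carried most of this: 10 members exceeded 1000 CPM, and the leading 5 made up 56.3% of the sum. Levels between probes also depend on how well each detector pair works and are not per length, so their order says nothing certain about the order of transcripts. The highest was Rpl35, a large-subunit protein beside the tunnel exit, at 4913 CPM in the lowest control, 5393 at the median and 5877 in the highest. Rps6 followed at 3325, 4447 and 5529 CPM, and Rps14, a small-subunit protein near the mRNA path, at 2807, 3399 and 8775. The ranges of these 3 overlap.

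At the other end 12 members lay under 10 CPM. Rpl17 and Rps22 had 0 counts in all 8 controls and did not pass the filter on low counts, which left 41 members to test. Rps16 probe 40295 lay at 0 to 1.29 CPM. Where a gene had several probes, they differed widely in level: Rpl26, a protein at the tunnel exit, had medians of 640, 5.82 and 3.90 CPM for probes 47183, 35362 and 44545. Rps15 had medians of 389 and 1.29 CPM for probes 46141 and 44401, Rpl3 had 1203 and 158 CPM for probes 50443 and 36024, and Rps16 had 1.70 and 1.03 CPM for probes 46089 and 40295. Whether the probes of a gene read different transcripts, or copies elsewhere in the genome, cannot be told from these files.

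The spread between controls was also uneven. It was smallest for Rps2, a small-subunit protein at the mRNA entry, with a coefficient of variation of 3.53%, for Rps19 (4.57%), which is mutated in Diamond-Blackfan anaemia, and for Rpl35 (5.95%). It was largest for Rps74 (85.6%), Rps16 probe 40295 (57.0%) and Rps14 (47.7%). Rps14 owed this to replicate 5, at 8775 CPM against 2807 to 4226 in the other 7. Between the 3 plates, edgeR called 0 of the 41 members different among the controls, with 0 at an unadjusted p under 0.05, and 0 of 11052 probes in all (470 at an unadjusted p under 0.05). DESeq2 was not run on the plates.

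In the dose libraries the summed level ran from 32662 to 62464 CPM with a median of 36680. It lay above the control range in 29 dose libraries and below it in 2. Of the highest doses 11 of 29 lay above it, and of the lower doses 18 of 145. PFOA at 100 µM had 62464 CPM and imazalil at 33.3 µM had 60600, while the next highest, oxadiazon at 100 µM, had 48122. High sums were not confined to top doses: dimethenamid had 47930 CPM at 11.1 µM, and etoxazole had 47457 at its lowest dose of 0.14 µM. With library sizes scaled by TMM (trimmed mean of M values), 9 libraries lay above the control range and 6 below. That range was then 32181.5 to 43153 CPM, with DMSO replicate 5 at its upper end.

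**Figure D1:**
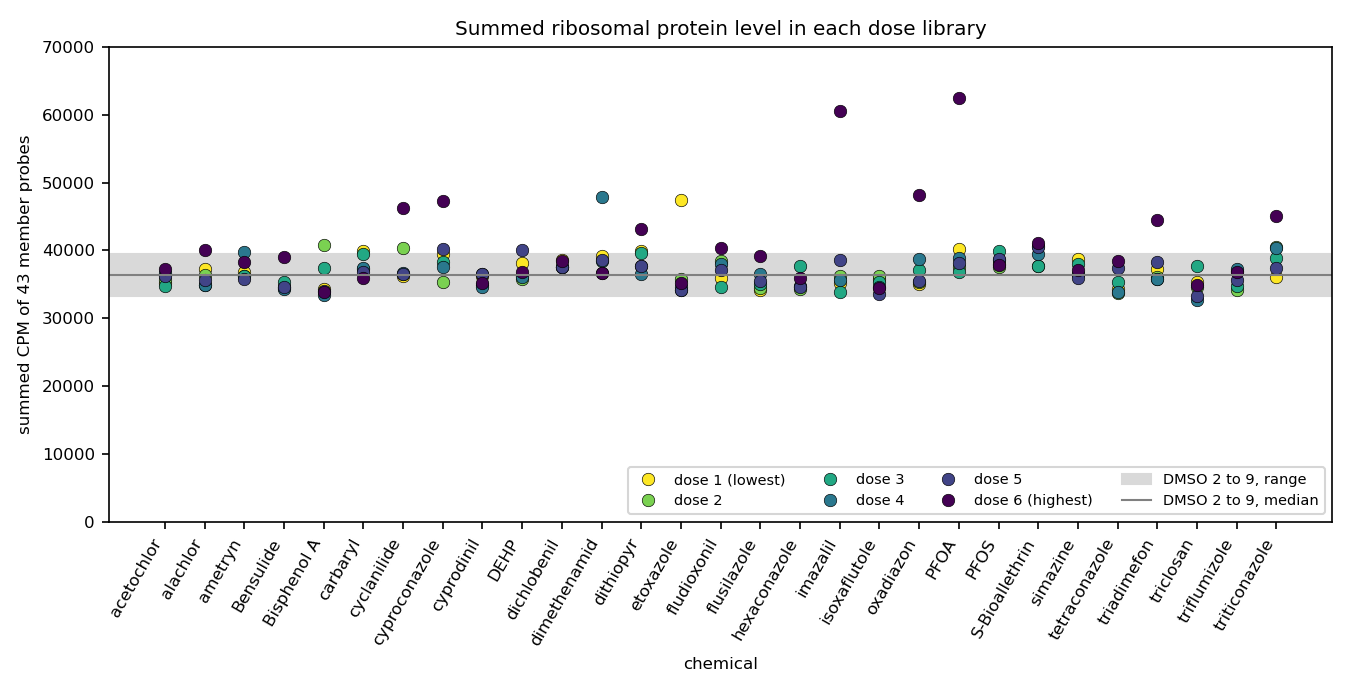
Summed CPM of the 43 member probes (y axis, from 0) in each dose library, by chemical (x axis) and coloured by rank of dose, with the range (grey) and median (line) of DMSO replicates 2 to 9. PFOA at 62464 and imazalil at 60600 CPM stand above the other libraries at their highest doses, and most points lie within the grey band of 33339 to 39472 CPM.

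To ask which members followed the dose of a chemical, a trend on log2(1 + dose) was fitted for each chemical to its 6 libraries and the 8 controls, with plate as a factor. Changes are read from the fit at 33.3 µM, on the log2 scale, with a standard error (SE). They are points on the fitted line, which the highest dose can pull, and not differences observed at 33.3 µM. A member is called where the adjusted p of edgeR's quasi-likelihood test, taken over all 11052 tested probes, is under 0.05. Members were called with 4 of the 29 chemicals, 24 calls in all, and each called change was an increase. The 4 chemicals were imazalil, PFOA, dithiopyr and cyproconazole. All comparisons share the same controls.

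Imazalil, an imidazole fungicide that blocks fungal sterol demethylation, had the most called members. With it 16 of 41 members rose (39.0%, where 7.67% of all tested probes rose) and 0 fell, and the members' median change was 0.81 against -0.04 for all probes. No member had an unadjusted p under 0.05 for a decrease, and 25 had one for an increase. Of all 11052 tested probes 3338 had such a p in edgeR, in either direction. The called members belonged to both subunits, and their changes ran from 0.60 to 2.22.

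The pattern over doses was a step at the last one. Rps6 lay at 4231, 4344, 4066, 4522 and 4177 CPM at 0.14, 0.4, 1.2, 3.7 and 11.1 µM and at 9026 CPM at 33.3 µM. All 5 lower doses lay within the control range and the highest lay above it. The fitted change of Rps6 was 1.02 (SE 0.24, edgeR adjusted p = 0.021). Rpl35 was at 5198, 6606, 5047, 5707 and 5972 CPM in the same order and at 11987 CPM at 33.3 µM, a change of 1.08 (SE 0.23, edgeR adjusted p = 0.0144). Rps27a, made as a fusion of ubiquitin with a small-subunit protein, was at 1865 to 2214 CPM at the 5 lower doses and at 3431 CPM at 33.3 µM, above the highest control (2167).

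Rps7 and Rpl10 showed some of the steepest rises. Rps7, a small-subunit protein that can bind Mdm2, the ligase that degrades p53, had 368, 1285 and 1492 CPM as the lowest, median and highest control. With imazalil it was at 1152 to 1346 CPM up to 11.1 µM and at 3495 CPM at 33.3 µM, a change of 1.41 (SE 0.39, edgeR adjusted p = 0.034). Rpl10, a late-joining large-subunit protein, went from 38.3 to 57.2 CPM at the lower doses to 139 at 33.3 µM against controls of 18.8 to 59.4 (change 1.49, SE 0.37, edgeR adjusted p = 0.0242). Rpl26 probe 44545 had the steepest fitted change, 2.22 (SE 0.52, edgeR adjusted p = 0.0211), on a low level of 0.695 to 4.62 CPM in controls and 21.9 CPM at 33.3 µM. The other Rpl26 probes were not called, at 0.59 for 47183 and 1.02 for 35362.

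Among the smaller called changes were Rps19 (0.79), Rpl3 probe 36024 (0.78) and Rps9 (0.60). Rpl3, which lies near the peptidyl transferase centre, was called by this probe alone: probe 50443, with the higher level, had 1101 to 1373 CPM at the 5 lower doses and 1123 at 33.3 µM, below every control but within the other doses, and a change of 0.14. Rpl5, which carries 5S ribosomal RNA with Rpl11 and can bind Mdm2, rose by 0.88 (SE 0.22, edgeR adjusted p = 0.0257), from 2638 to 3439 CPM at the lower doses to 4755 at 33.3 µM. The remaining called members, named after their values were seen, were Rpl6, Rpl12, Rpl23a, Rpl32, Rps15a and Rps21, at 0.90 to 1.37.

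Some members did not share the rise. Rplp0, the base of the large subunit's stalk that recruits elongation factors, lay at 32.0 to 44.2 CPM at the 5 lower doses and at 18.0 CPM at 33.3 µM, its lowest value in any dose library and below the lowest control (27.1). Rps15 probe 46141, a small-subunit protein at the decoding site, likewise had its lowest value of all dose libraries there, 210 CPM against 286 to 915 in controls. Rps14 was at 649 CPM, below every control. The fitted trends of these 3 were -0.28, -0.18 and -0.55, with edgeR adjusted p of 0.622, 0.821 and 0.627. Rpsa, a small-subunit protein also known as the laminin receptor, was at 309 to 407 CPM below the highest dose and at 408 CPM at it, with a change of 0.44 that missed the threshold (edgeR adjusted p = 0.12).

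The imazalil calls turned on few libraries: 0 members were called without the 33.3 µM library, where the median change was 0.25 (0 at an unadjusted p under 0.05), 6 without DMSO replicate 2, and 0 with DMSO replicate 1 among the controls. They were also 0 with the dose score by rank or with the controls of plate 1 alone. In the 33.3 µM library hepatocyte markers summed to 15002 CPM and stellate cell markers to 2.87 CPM (5 of 7 at 0 counts), below every control. Macrophage markers summed to 157 CPM, above every control. That sum does not stand for the whole list, as 1 of 7 tested macrophage markers was called higher and their median change was -0.36. The part of these markers in the result was not tested.

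Other parts of the translation machinery moved with imazalil too. Of genes for ribosome biogenesis 9 of 47 rose and 0 fell (median 0.53), of translation initiation factors 13 of 26 rose and 0 fell (median 0.71), and of elongation factors and other TOP mRNAs 3 of 7 rose and 0 fell (median 0.60). Mitochondrial ribosomal proteins, a separate set for the ribosomes of mitochondria, had 5 of 69 higher and 0 lower, with a median of 0.31, a share no higher than the 7.67% of all tested probes. Of the related probes outside the name rule, such as Rps170.000001' (1.26) and Rpl35a0.000001 (1.47), 9 of 31 rose and 0 fell.

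PFOA, perfluorooctanoic acid, a surfactant that activates PPARα in rodent liver, had the highest summed level but fewer calls. With it 5 of 41 members rose (12.2%, where 2.52% of all tested probes rose) and 0 fell, with a median of 0.43 against -0.04. At an unadjusted p under 0.05 there were 22 higher and 1 lower, where 2370 of all 11052 tested probes had such a p in edgeR, in either direction. The 5 were Rpl23a (1.18), a tunnel-exit protein that contacts signal recognition particle, Rpl35 (1.03), Rpl3 probe 50443 (0.90), Rps19 (0.83) and Rpl6 (0.63).

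Here too the change sat in the last library, at 100 µM. The levels of Rpl35, Rps19 and Rpl3 probe 50443 at 33.3 µM lay well under those that the fit gives at this dose. Rpl35 was at 5742 to 6598 CPM from 0.4 to 33.3 µM and at 14080 CPM at 100 µM, where the highest control was 5877. Rps19 was at 2381 to 2759 CPM over the lower doses and at 5125 CPM at 100 µM. Both were at their highest of all dose libraries at 100 µM. Rpl3 probe 50443 was at 1177 to 1326 CPM below the highest dose and at 2921 at it, where Rpl3 probe 36024 had 189 CPM against a control range of 121 to 180. The Rpl3 probe called with PFOA was thus not the one called with imazalil. Rps6 reached 5521 CPM, within the control range, and its change of 0.43 was not called (edgeR adjusted p = 0.172).

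Several members were far out in opposite directions in the top PFOA and imazalil libraries. Rplp0 was at 160 CPM with 100 µM PFOA, its highest of all dose libraries, and at 18.0 with 33.3 µM imazalil, its lowest. Rps15 probe 46141 was at 1963 and 210 CPM, again the highest and the lowest. Rps7 showed the reverse, with 114 CPM for PFOA, its lowest, and 3495 for imazalil, its highest. Rpl10 followed Rps7, at 6.51 and 139 CPM. The dose trends of PFOA for Rplp0 (1.17, SE 0.38), Rps15 probe 46141 (1.18, SE 0.45), Rps7 (-0.30, SE 0.61) and Rpl10 (-0.06, SE 0.58) were not called by edgeR, with adjusted p of 0.103, 0.152, 0.816 and 0.967. The difference between the chemicals was not tested.

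**Figure D2:**
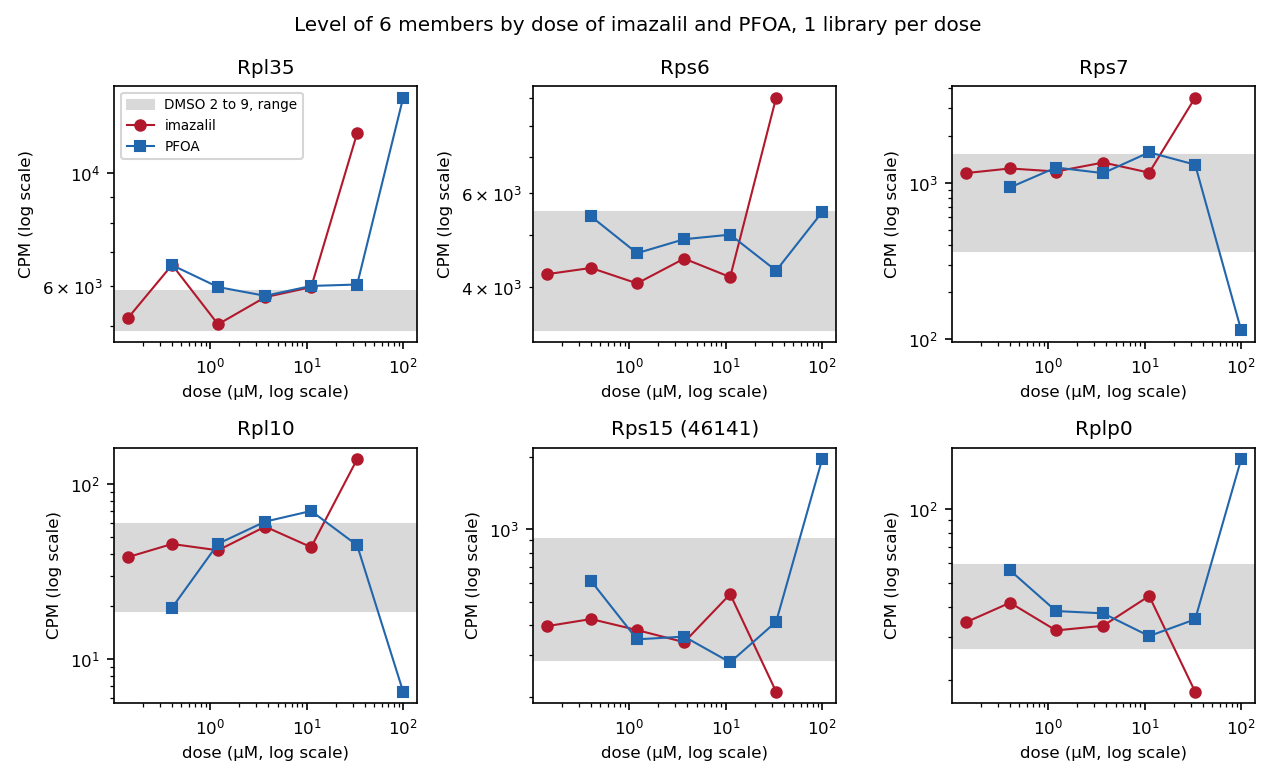
CPM (y axis, log scale) of 6 members against dose in µM (x axis, log scale) of imazalil (red) and PFOA (blue), 1 library per point, with the range of DMSO replicates 2 to 9 in grey. Rpl35 rises at the last dose of both chemicals, Rps6 with imazalil alone leaves the grey band, and Rps7 and Rpl10 against Rps15 and Rplp0 leave it on opposite sides.

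The PFOA calls were 0 without the 100 µM library (1 member at an unadjusted p under 0.05) or without DMSO replicate 4, and 0 with DMSO replicate 1 added, with a rank dose score or with the controls of plate 2 alone. They were 2 or 3 without any 1 of DMSO replicates 2, 3, 6, 7, 8 and 9 or the 1.2 µM library, and 9 to 14 without DMSO replicate 5 or the 11.1 or 33.3 µM library. In the 100 µM library hepatocyte markers were within the control range, at 45503 CPM, while macrophage (42.95 CPM) and bile duct markers (9.54) summed to less than in any control and stellate cell markers (12.6) to more. There 1 of 8 macrophage, 3 of 5 bile duct and 2 of 7 stellate cell markers had 0 counts. The part of these markers in the result was not tested. Of the gene lists, 0 of 47 biogenesis genes, 0 of 26 initiation factors and 0 of 7 elongation and TOP genes were called with PFOA in either direction.

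**Figure D3:**
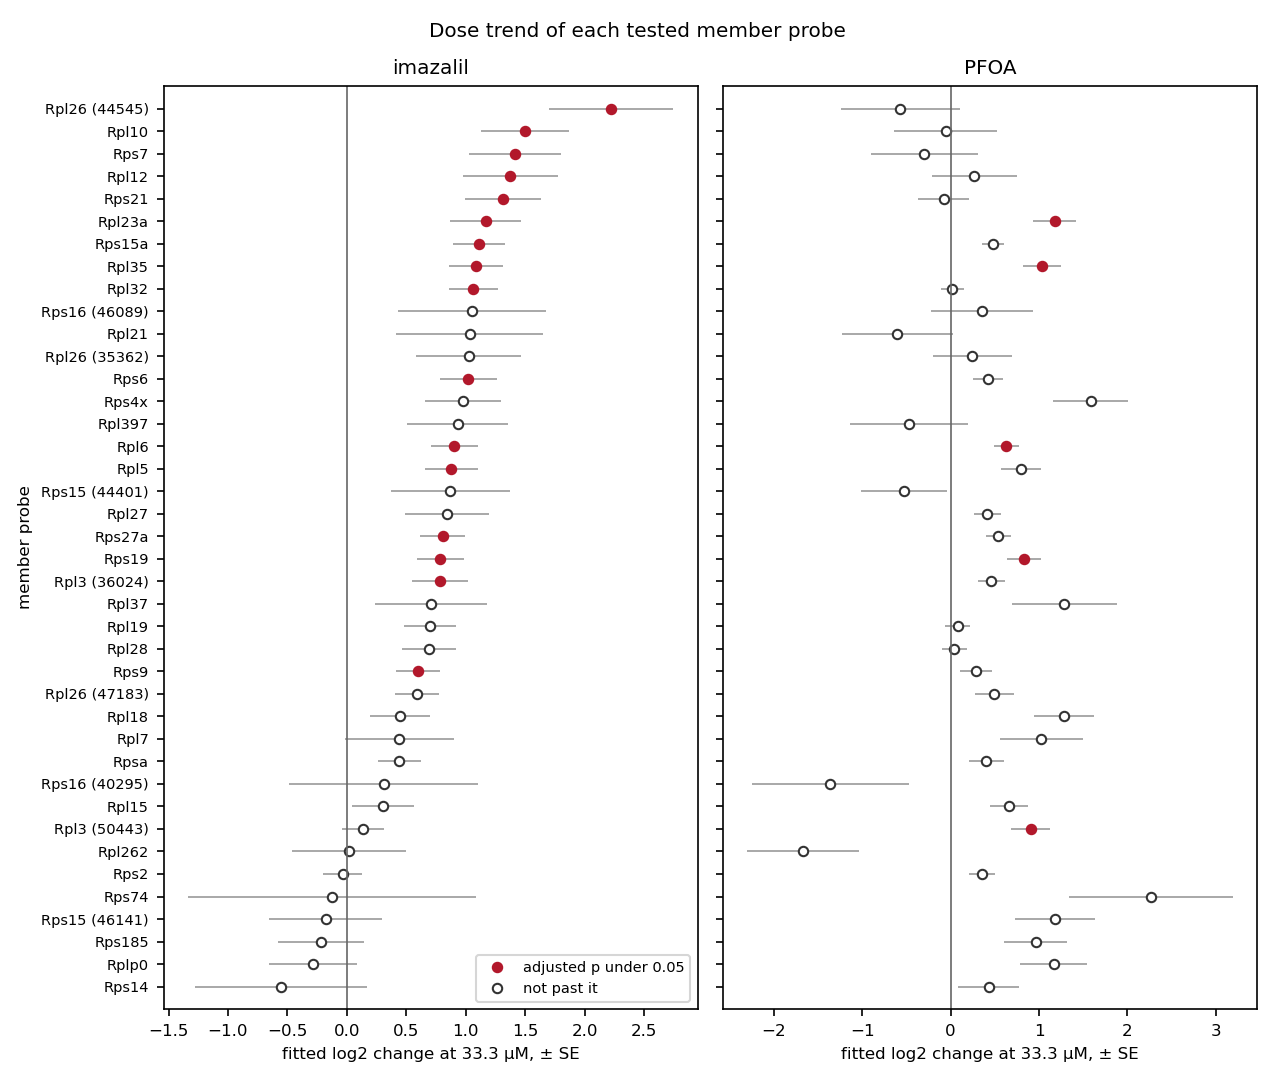
Fitted log2 change at 33.3 µM (x axis, points, with bars of 1 SE) of the tested member probes, 1 left out (y axis, ordered by the imazalil change) for imazalil (left) and PFOA (right). Filled points passed an adjusted p of 0.05, 16 on the left and 5 on the right, all above 0. The x axes differ in range.

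With dithiopyr, a pyridine herbicide, 2 of 41 members rose (4.88%, where 6.21% of all tested probes rose) and 0 fell, a share near that of all probes. Rpl7, a large-subunit protein, was at 136, 68.1, 165, 191 and 210 CPM from 0.14 to 11.1 µM and at 487 CPM at 33.3 µM. Controls spanned 95.2 to 275 CPM, so the highest dose alone lay above them (change 1.70, SE 0.47, edgeR adjusted p = 0.0318). Rpl5 was at 2601 to 3609 CPM below the highest dose and at 4872 at it (change 0.69, SE 0.21, edgeR adjusted p = 0.0428). The members' median was 0.07, while 22 of 47 ribosome biogenesis genes rose (median 0.83) and 0 fell, as did 5 of 7 elongation and TOP genes (median 0.48).

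The difference between these lists was not tested. Hepatocyte markers summed to 14671 CPM in the 33.3 µM library, the lowest of all dose libraries. Of them 9 of 11 were called lower, where 725 of 11052 tested probes were. Macrophage markers (46.3 CPM) summed to less than in any control there and endothelial markers (21.6) to more, with 1 of 8 and 2 of 7 of them at 0 counts. The part of these markers in the result was not tested. Called members numbered 0 without the 33.3 µM library or DMSO replicate 3 and 1 without any 1 of DMSO replicates 7, 8 and 9 or the 0.14, 0.4 and 3.7 µM libraries. Without DMSO replicate 2 there were 2, of which 1 was shared.

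With cyproconazole, a triazole fungicide, 1 of 41 members rose (2.44%, where 5.79% of all tested probes rose) and 0 fell. It was Rpl28, a large-subunit protein, at 516 to 690 CPM up to 33.3 µM and 1012 CPM at 100 µM, its highest of all dose libraries, against controls of 438 to 705 (change 0.53, SE 0.15, edgeR adjusted p = 0.0454). Rpsa and Rps2 also had their highest dose-library values there, 500 and 222 CPM, but were not called. The members' median was 0.25, and DESeq2 called 7, with its share of all probes not counted. Of related lists 10 of 47 biogenesis genes, 8 of 26 initiation factors and 6 of 7 elongation and TOP genes rose and 0 fell. That top library was the shallowest dose library, at 1340300 counts. Its hepatocyte markers summed to 17681 CPM and bile duct markers to 15.7, below every control. Endothelial (35.1) and stellate cell markers (17.2) summed to more than in any control. In that library 4 of 5 bile duct, 2 of 7 endothelial and 4 of 7 stellate cell markers had 0 counts. The part of these markers in the result was not tested. The call was lost without the 100 µM library or any 1 of DMSO replicates 4, 6, 7, 8 and 9 or the 0.4, 1.2 or 3.7 µM library, while 6 members were called without DMSO replicate 5 and 3 without the 33.3 µM library.

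For the other 25 chemicals edgeR called 0 members. Over these 25 fits there were 56 increases and 21 decreases with an unadjusted p under 0.05. Many probes outside the members had such a p in edgeR too. Its count over all 11052 tested probes ran from 271 with etoxazole to 2819 with alachlor, where 0 and 15 of 41 members had one. The counts of members are therefore not read as more than the share of all probes. DESeq2 called members for alachlor (4), S-Bioallethrin (2), oxadiazon (1) and tetraconazole (1), all higher. The share of all probes that DESeq2 called was not counted, so these calls have no background to be read against. The members' median change exceeded that of all probes for 22 of 29 chemicals and was below it for 7, with the lowest at -0.18 for etoxazole. The fits share their controls, so these signs are not independent of one another.

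The mean of the 29 slopes was then tested in a single model with all dose libraries. In it 13 of 41 members rose (31.7%, where 8.46% of all tested probes rose) and 0 fell, with 18 higher and 0 lower at an unadjusted p under 0.05. Of all 11052 tested probes 3853 had such a p in edgeR, in either direction. The increases were small. The median change was 0.09 against -0.03 for all probes, and the steepest was 0.30 (SE 0.10) for Rpl37, a large-subunit protein at 1.03 to 4.17 CPM in controls. Rps4x, the X-linked small-subunit protein, rose by 0.19 (SE 0.06), Rpl35 by 0.16 (SE 0.04), Rpl5 by 0.15 (SE 0.04) and Rpl18, a large-subunit protein, by 0.14 (SE 0.05). The edgeR adjusted p of these 5 was 0.0162, 0.0236, 0.000684, 0.00207 and 0.038. Rps6 (0.12), Rpsa (0.10) and Rps27a (0.09) were also called, as were Rpl26 probe 47183, Rpl28, Rps9, Rps15a and Rps19.

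Members that were not called in the mean trend included Rplp0 (0.10, edgeR adjusted p = 0.224), both probes of Rpl3, both of Rps15 and Rps14 (-0.03, edgeR adjusted p = 0.884). The result depended on the top of the dose range. Without the highest doses 0 of the 13 were called and 1 member was called lower, the median change was -0.02, and Rps4x, Rps6, Rps9 and Rps27a turned to between -0.06 and -0.01. Without imazalil, PFOA, dithiopyr and cyproconazole together 1 member was called, with all 13 still above 0 and a median of 0.05. Leaving out each chemical in turn gave 10 to 15 calls, and leaving out the 5 libraries with a library score above 2, described further on, gave 9, of which 7 were shared.

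**Figure D4:**
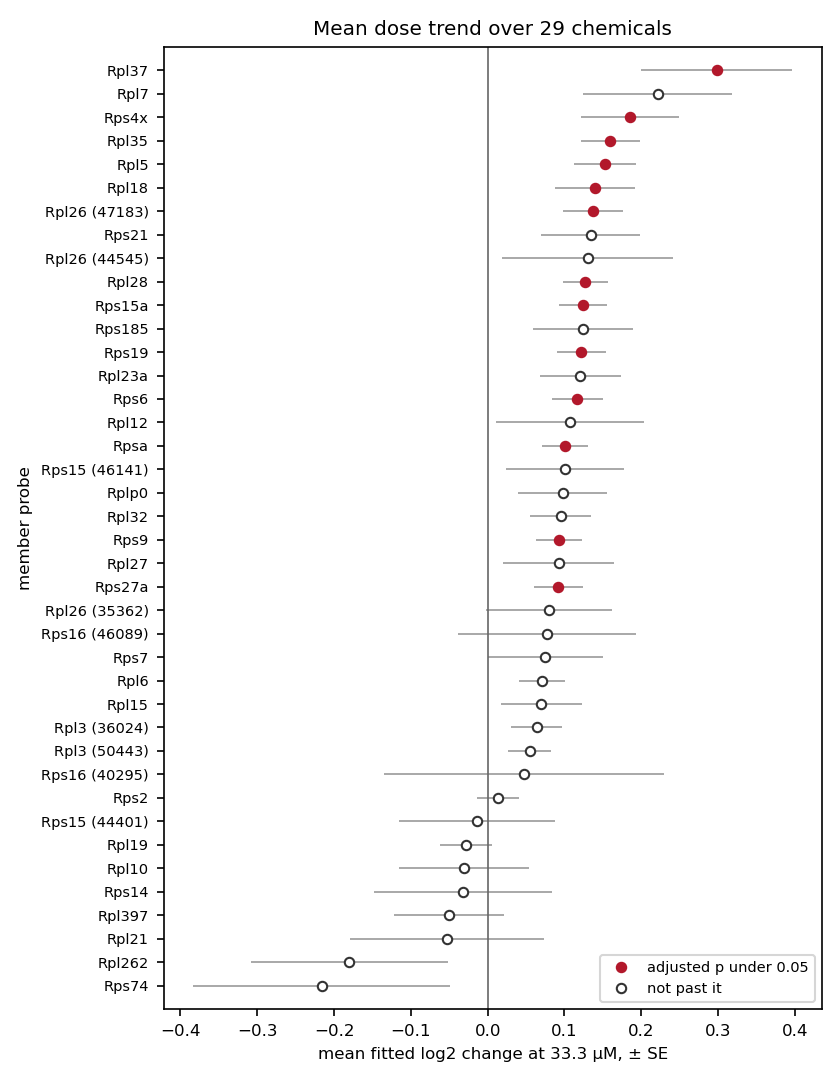
Mean fitted log2 change at 33.3 µM over 29 chemicals (x axis, with bars of 1 SE) for the tested member probes, 1 left out (y axis). The 13 filled points passed an adjusted p of 0.05 and lie between 0.09 and 0.30.

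In the same mean trend 15 of 47 ribosome biogenesis genes rose and 0 fell (median 0.10), led by Emg1 (0.25), a methyltransferase of the small-subunit precursor, with Ebna1bp2 (0.21), Nop56 (0.24) and Imp4 (0.19). Of initiation factors 7 of 26 rose and 0 fell (median 0.06), among them Eif4g2 (0.14), Eif5 (0.19), Eif2s1 (0.18) and Eif3c (0.12). Of elongation and other TOP genes 6 of 7 rose and 0 fell (median 0.15), with Eef1g (0.15), Ipo5 (0.27), Pabpc1 (0.14) and Eef1d (0.15). These medians stand beside -0.03 for all probes.

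Other lists had calls in both directions or lower ones only. Over all tested probes 8.46% were called higher and 15.3% lower. The higher calls among mitochondrial ribosomal proteins and growth control genes, given below, were near that share of higher calls. Of ribosomal protein paralogs 0 of 4 rose and 2 fell, Rps27l, a p53-responsive copy of Rps27 (-0.33), and Rpl10l (-0.18). Mitochondrial ribosomal proteins had 8 of 69 higher and 2 lower and a median of 0.00. Among growth control genes 2 of 17 rose, Cnbp (0.14), which binds TOP mRNAs, and Tsc2 (0.16), an inhibitor of mTOR, and 1 fell, Rheb (-0.27), its activator. Of p53 targets 3 of 11 rose, Gadd45a (0.20), Mdm2 (0.29) and Aen (0.19), and 1 fell, Sesn1 (-0.43). Among hepatocyte markers 2 of 11 rose and 4 fell, Alb by 0.19, and 3 of 7 macrophage markers fell.

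Each of the 9 reference chemicals is a single library assumed to vary as DMSO does, so a call compares that library with the controls and not the chemicals with one another. By edgeR members were called in the sulforaphane library and in none of the other 8. Sulforaphane, an isothiocyanate that activates NRF2, was given at 10 µM. With it 16 of 41 members were called higher (39.0%, where 9.99% of all tested probes were) and 1 lower (2.44%, where 18.6% were). The median over all probes was -1.07 in this fit, and the members' median was 0.57. In this library, the shallowest of all, bile duct (127 CPM) and stellate cell markers (41.2) summed to more than in any control and endothelial (1.72) and macrophage markers (48.1) to less, and their part in the result was not tested. The steepest were Rpl7 (1.82, 479 CPM against 95.2 to 275 in controls), Rpl28 (1.42, 1086 CPM against 438 to 705) and Rpl32, a large-subunit protein (1.10, 632 CPM against 373 to 464). The mildest were Rps19 (0.57) and Rpl27 (0.70).

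Rps185 was called lower on 0 counts, where controls had a median of 16.7 CPM. From a floor of 3 counts in that library it was at least 3.24-fold lower. Rpl397 also had 0 counts there, at least 2.42-fold under its control median of 12.4 CPM, and was not called. With DMSO replicate 1 added, 1 member was called higher. In the other 8 reference libraries, with 0 calls by edgeR, 5 increases and 8 decreases had an unadjusted p under 0.05, while by DESeq2 1 of these libraries had a call. Over all 11052 tested probes, edgeR gave such a p to 459 with dexamethasone, the fewest, and to 2244 with Pregnenolone 16alpha carbinonitrile, the most. There 0 and 6 of 41 members had one. The counts of members are not read as more than the share of all probes.

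Ribosomal proteins did not all vary together between libraries. Over 465 pairs of the 31 members at 10 CPM or more, Pearson's r of log2(CPM + 2) across 182 libraries ran from -0.79 to 0.93 with a median of 0.17. The libraries differ in depth and share plates, and these correlations are a description. The closest pair was Rpl35 with Rps19 (0.93). The most opposed were Rpl10 with Rplp0 (-0.79) and Rps7 with Rps15 probe 46141 (-0.78).

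This division followed a broad axis of the libraries. A library score was made as the first principal component, with 30.6% of the variance, of 5517 well-measured probes that are not members, in SD and with DMSO replicate 5 on the positive side. PFOA at 100 µM had the highest score, 6.62, DMSO replicate 5 had 2.76, and imazalil at 33.3 µM had the lowest, -2.18. Of the 31 members 10 correlated with the score above 0.5, 7 below -0.5 and 14 in between. The share of all probes past these limits was not counted, so these counts are not read as particular to the members. The positive end held Rps15 probe 46141 (0.90), Rpl18 (0.87), Rplp0 (0.86), Rpl7 (0.81) and Rps4x (0.76). The negative end held Rpl10 (-0.87), Rps7 (-0.84), Rpl397 (-0.76) and Rps21 (-0.66).

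DMSO replicate 5, which set the sign of the score, stood apart from the other controls in members at both ends. In it Rps15 probe 46141 was at 915 CPM against 286 to 474 in the other 7 controls, while Rps7 was at 368 against 1018 to 1492. Leaving out the 5 libraries with a score above 2 kept all 10 members above 0.5 and 5 of the 7 below -0.5, with Rps15 probe 46141 at 0.85 and Rpl10 at -0.87. Genes with a TOP tract among the starts printed above lay at the negative end (Rpl10, Rps7), at the positive end (Rps15, Rplp0) and in between (Rpl35, 0.24), and Rpl18, Rps4x, Rpl5 and Rps21, towards the ends, have no tract at their annotated start. With the score as a covariate imazalil had 16 called members, 11 of them shared with the fit without it, and the median change of members with PFOA went from 0.43 to 0.19, with 6 called.

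**Figure D5:**
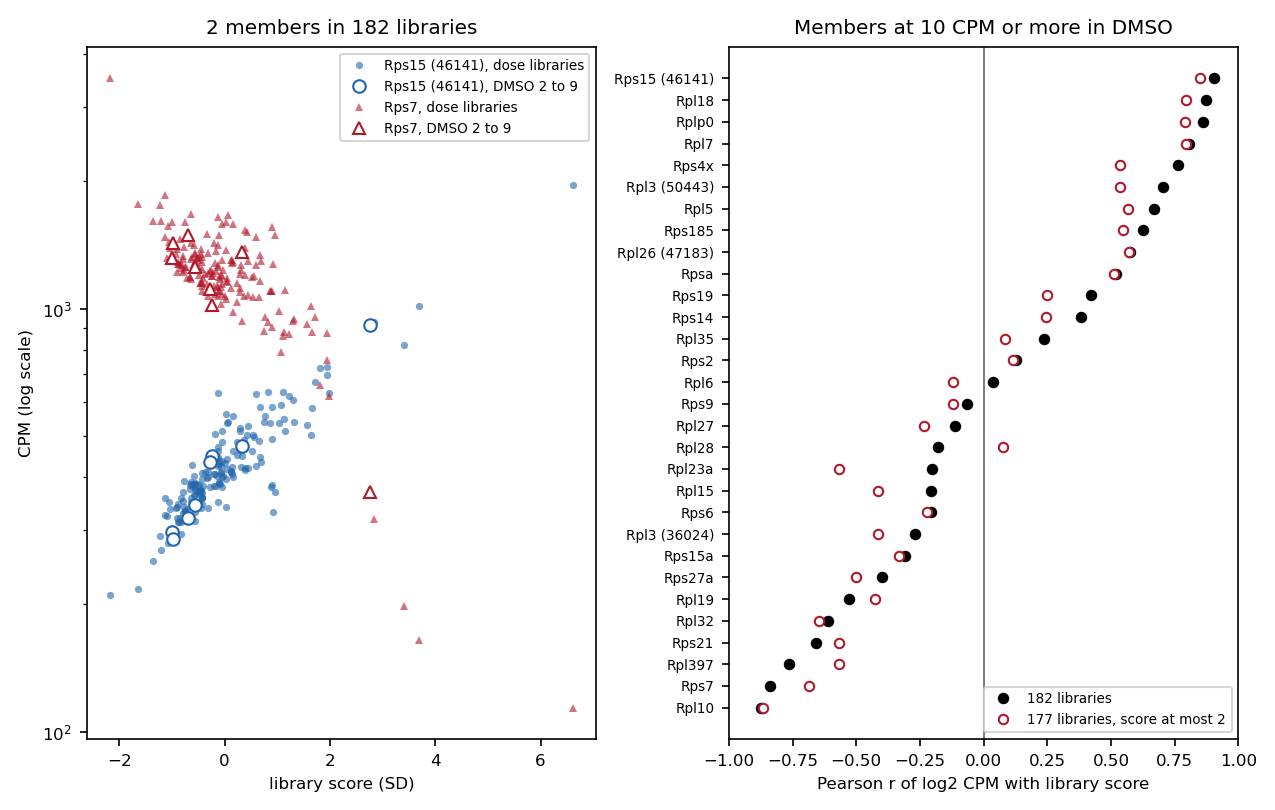
Left, CPM (y axis, log scale) of Rps15 probe 46141 (blue) and Rps7 (red) against library score in SD (x axis) in 182 libraries, DMSO replicates 2 to 9 as open symbols. Right, Pearson r with the score for the members at 10 CPM or more, 1 left out, in all libraries (black) and without the 5 libraries of score above 2 (open red). Rps15 is higher and Rps7 lower at high scores, where the 1 control is DMSO replicate 5, and r spans -0.87 to 0.90.

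A different set of libraries was low in Rpl27, a large-subunit protein, and Rps14. Rpl27 kept to 821 to 960 CPM in the controls but lay below them in 53 dose libraries, down to 150 CPM with 11.1 µM bisphenol A, and above them in 23, up to 1283 CPM. Rps2 (87), Rpl15 (69) and Rpl32 (59) lay below their controls in more dose libraries, and the other members in fewer. Rps14 was at 284 CPM with 11.1 µM bisphenol A, also its lowest. Of the 10 dose libraries lowest in Rpl27, 8 were among the 10 lowest in Rps14 and 7 among the 10 lowest in Rpl15, a large-subunit protein. Those 10 came from 7 chemicals and not from their top doses alone: bisphenol A at 0.4, 3.7 and 11.1 µM, cyclanilide at 1.2 and 33.3, Bensulide at 3.7, carbaryl at 100, dichlobenil at 11.1, etoxazole at 0.4 and imazalil at 0.4 µM. Their library scores ran from -0.13 to 1.95. Without the highest dose edgeR called 4 members lower for bisphenol A, where the share of all probes was not counted. With it 0 were called (4 members and 1055 of 11052 probes at an unadjusted p under 0.05 in edgeR).

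By the likeness of their log2 CPM to the mean of the 41 tested members over the same 182 libraries, the closest probes outside the name rule were LOC684988 (r = 0.71), LOC108349548 (0.71), Rps170.000001' (0.71), LOC1036928290.000001' (0.69) and Atp6v1g1 (0.68), a subunit of the vacuolar proton pump.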

How the data were processed

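The deposited table holds raw counts per probe, per the file headers and values, which the authors made from TempO-Seq reads. The submitters' processing notes name Bowtie; its version and the genome build are not given in the sources used here. All 192 libraries were matched to labels by name, 0 columns were unmatched and 0 pairs of libraries were identical. Groups, doses and plates (from the well) came from the labels.

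A probe was tested if 6 or more libraries reached 1.74 CPM, which is 10 counts for a library of median depth; 11052 of 22253 did. Counts were fitted with edgeR 4.0.16 (TMM, robust quasi-likelihood F test, plate factor) in R 4.3.3, with Benjamini-Hochberg adjustment over all tested probes and a threshold of 0.05. DESeq2 1.42.0 was an alternative. For the library score a prior count of 2 was added before log2 CPM, and probes with a mean above 4 were used. The fits were tested on simulated counts that had the same spread for every probe and no variation shared between probes across libraries. That test therefore does not cover the library score or the uneven spread between controls. A single reference library was assumed to vary as DMSO does. Reads amplified by PCR are not independent molecules, so the depth covers counting error only.

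Genes were named by rule: per chemical up to 3 called members at each end of the changes, if their mean count was at least 10, up to 5 and 5 in the mean trend, a panel of 11 genes (6 with a probe: Rpsa, Rplp0, Rps6, Rps27a, Rpl3 and Rpl5), the 3 highest and lowest members by level and by variation in DMSO, genes with several probes, up to 4 genes per list, and the 5 probes most like the members. Members named for their values at single libraries or along the library score were chosen after those values were seen. The members and gene lists were chosen with earlier results of these data known. The values of 1 member are not reported here and not drawn by name, though it stays in the fits, sums and counts.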

Additional observations from a re-analysis of the deposited data

Results flagged for a closer look

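Of 23 values examined, 7 member levels had 1 DMSO library far from the other 7, with a gap to the nearest, as a share of the whole range, above Dixon's 95% critical value for 8 libraries. Chance gives about 1 such value in 20 where values are independent and chosen without regard to their spread. Some of the 23 were named for their variation in these same libraries, and members vary together. That rate therefore does not apply here. All 7 were in DMSO replicate 5, which also had the highest library score of the controls, 2.76, and the lowest depth of them, 2876741. Rps14 was at 8775 CPM there against 2807 to 4226 in the others, and Rpl5 at 3537 against 2441 to 2862. Rpl3 probe 50443 was at 1387 CPM against 1142 to 1224, and Rpl18 at 1449 against 769 to 1041. Rps15 probe 46141 was at 915 CPM against 286 to 474, and Rps4x at 241 against 107 to 169. Rps7 alone of the 7 was low, at 368 CPM against 1018 to 1492. The part of this library in each result is given by the values without it.

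DMSO replicate 1, which no comparison used, had Rpl23a at 1041 CPM against 135 to 208 in the other 8 DMSO libraries.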

How the results depend on the processing

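Members called higher with imazalil (16), PFOA (5), dithiopyr (2) and cyproconazole (1) numbered 0 each with a rank dose score, with DMSO replicate 1 or without the highest dose, and 0, 0, 2 and 0 with DMSO of the own plate only. Without the plate term they were 22, 14, 1 and 7, without the filter 12, 3, 0 and 0, with total counts 12, 2, 3 and 2, with DESeq2 size factors 18, 9, 2 and 1, with DESeq2 20, 11, 2 and 7 (and 1 lower with dithiopyr), and with the library score as covariate 16, 6, 2 and 8. Leaving out each library gave 0 to 22, 0 to 14, 0 to 2 and 0 to 6, and 0 to 1 lower with dithiopyr. In all these other fits calls were counted for members only, with no share of all probes beside them. Calls over all chemicals (24 higher, 0 lower, in 4 chemicals) were 48 and 1 in 8 with DESeq2, 15 in 2 without the filter, 51 and 4 without the plate term, 0 with a rank score or DMSO replicate 1, 2 in 1 with the own plate, 0 and 4 in 1 without the highest dose, and 48 and 4 in 12 with the score. Total counts moved the median of all probes to -0.18 with imazalil, -0.22 with PFOA and 0.11 with dithiopyr, where the members' medians were 0.66, 0.19 and 0.19.

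In the mean trend (13 higher, 0 lower) there were 0 higher and 1 lower without the highest dose, 1 lower without the filter, 9 with a rank score and 10 to 15 with each DMSO library or chemical left out. Without the 4 chemicals with calls there was 1, and without libraries of score above 2 there were 9; these and the leave-out of each chemical were chosen after seeing the data, as was, for the 4 chemicals with calls, leaving out DMSO replicate 5 and the highest dose together (0 calls each). Sulforaphane's 16 higher and 1 lower became 1 higher with DMSO replicate 1, and 14 to 20 higher and 1 to 2 lower with each DMSO library left out. Reference chemicals with a call (1) were 2 with DESeq2 and 1 to 2 with each DMSO library left out. Dose libraries above the DMSO range (29) were 9 with TMM.

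Of 1428 values for 54 members in a comparison, 1115 kept direction and call, 301 lost the call and 12 turned. With DMSO replicate 1 Rpl12 and Rpl23a were at -2.0 and -0.73 with imazalil. Without 33.3 µM Rpl26 probe 44545 and Rpl3 probe 36024 were at -0.36 and -0.11 (up to 2.63 and 1.01 with another library left out), and at -0.37 and -0.11 without DMSO replicate 5 as well. In the mean trend without the highest dose Rps27a, Rps4x, Rps6 and Rps9 were at -0.031, -0.056, -0.0097 and -0.0077. The cause was not tested. No paired analysis was possible because each dose is 1 library and shares fewer than 2 replicate numbers with DMSO. Depth limits members under 10 CPM most.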
